A study of Mus musculus with 8 samples.

Results

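The cell cycle and proliferation genes described here are 45 genes, of 31053 counted, that dividing cells transcribe as they pass from G1 through S phase, G2 and mitosis. They were chosen by gene symbol from their known roles, by a rule that uses no measured value, though with earlier results of these data known. Their transcripts were counted from QuantSeq libraries, which read the 3′ ends of mRNAs, of retinal pigment epithelium (RPE) eyecups of untreated C57/Bl6 mice at postnatal day 11. The comparison was between 4 libraries of wild-type mice (Bbs8+/+, the controls) and 4 libraries of knockout mice (Bbs8-/-). Bbs8, listed as Ttc8 in gene annotations, encodes a subunit of the BBSome, the complex that carries membrane proteins to and from primary cilia. Mice of both genotypes had no other engineered allele named in the labels. The knockout is constitutive, so every cell of the eyecup lacked the gene and not the RPE alone. The eyecups were what was left of the eye after cornea, lens, retina and optic nerve had been discarded, so the RNA came from RPE together with choroid, sclera and other attached cells.

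Total gene counts were 1636725 to 2884983 per library, and 13813 genes with at least 1 CPM (counts per 1000000, with TMM scaling factors) in at least 4 libraries were tested. Of these, 152 were higher and 157 lower in Bbs8-/- at a false discovery rate (FDR) of 0.05 by the quasi-likelihood test of edgeR. Ttc8 itself was 14.6, 19.7, 18.2 and 21.6 CPM in control replicates 1 to 4 and 9.7, 3.65, 2.29 and 4.2 CPM in knockout replicates 1 to 4, a log2 fold change of -1.95 (SE 0.32, edgeR FDR 2.74e-06). The RPE markers Rpe65, Rlbp1, Rgr and Ttr were abundant in every library, whereas Best1 was listed at 0 to 4.59 CPM. Libraries of the 2 genotypes also differed in the summed level of 4 Y-linked genes, 59 to 64.9 CPM in controls and 108 to 119.5 CPM in knockouts. Every library held Y-linked transcripts, and within a genotype the sums were close (SD 2.76 CPM in controls and 6.23 CPM in knockouts). Whether a library held RNA of a single animal or of several was not tested, so SD and intervals given here describe spread between libraries. The labels give no sex, so for a gene that differs between the sexes the parts of sex and genotype cannot be told apart. None of the 45 cell cycle genes lies on the X or Y chromosome.

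Progress through the cell cycle is driven by cyclin-dependent kinases. D-type cyclins with Cdk4 or Cdk6 inactivate the retinoblastoma protein in G1, which frees E2F factors to switch on the genes of DNA replication, and a later wave of transcription through the MuvB complex with B-Myb and FoxM1 supplies the mitotic genes. Most RPE cells of the mouse leave the cycle around birth, while endothelial cells, fibroblasts and other cells of choroid and sclera go on dividing as the eye grows. In an extract of whole tissue, a lower level of these transcripts from fewer dividing cells and from less RNA per dividing cell cannot be told apart.

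The promoters of these genes share short sequence features that the choice by symbol did not use. Sequence before the transcript start was at hand in RefSeq (GRCm38.p6) for 36 of the 45 genes. It was searched over 250 bases, on both strands, for the CCAAT box (CCAAT), for the cell cycle genes homology region or CHR (TTTGAA), which MuvB complexes bind, and for an E2F site (TTTGGCGC, TTTCGCGC, TTTCCCGC or TTTGCCGC). Neighbouring matches can share bases, as E2F matches on opposite strands do in Mcm5 and Mcm6. A CCAAT box was in the window of 29 of the 36 genes (80.6%), compared with 37.5% of the 27025 genes of all kinds that had such a window. A CHR was in 11 of 36 (30.6%) compared with 18.3%, and both together were in 10 of 36 (27.8%) compared with 6.45%. An E2F site was in 6 of 36 (16.7%) compared with 2.16%. Of these 6, 5 were among the 12 helicase and DNA synthesis genes with a window (41.7%), and 1, Cdk1, was among the 20 genes of mitosis and cytokinesis with a window (5%). The windows of 4 genes are printed to show what these matches look like, in lower case from 5′ to 3′ with the matches to any of the 3 motifs in capitals. Top2a and Mki67 are widely used proliferation markers, Mcm6 held the most E2F matches, and Kif11 held a single CCAAT box with a single CHR close to the start.
Top2a (GRCm38.p6, chr11:99024190-99024439, - strand): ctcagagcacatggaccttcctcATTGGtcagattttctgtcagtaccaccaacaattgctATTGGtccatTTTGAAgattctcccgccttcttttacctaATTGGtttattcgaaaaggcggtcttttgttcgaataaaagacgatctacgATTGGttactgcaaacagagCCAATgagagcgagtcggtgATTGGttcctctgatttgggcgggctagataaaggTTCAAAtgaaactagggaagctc
Mki67 (GRCm38.p6, chr7:135716380-135716629, - strand): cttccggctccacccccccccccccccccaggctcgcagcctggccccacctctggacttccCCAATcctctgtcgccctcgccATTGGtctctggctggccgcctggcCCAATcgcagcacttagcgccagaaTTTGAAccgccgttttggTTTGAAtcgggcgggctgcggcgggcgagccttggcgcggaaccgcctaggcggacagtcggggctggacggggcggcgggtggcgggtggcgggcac
Mcm6 (GRCm38.p6, chr1:128359706-128359955, - strand): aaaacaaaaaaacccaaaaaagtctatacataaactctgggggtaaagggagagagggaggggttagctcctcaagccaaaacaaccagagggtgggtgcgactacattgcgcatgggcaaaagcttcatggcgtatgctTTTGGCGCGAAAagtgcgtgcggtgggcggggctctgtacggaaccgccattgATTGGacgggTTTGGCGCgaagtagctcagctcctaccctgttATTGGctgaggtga
Kif11 (GRCm38.p6, chr19:37376132-37376381, + strand): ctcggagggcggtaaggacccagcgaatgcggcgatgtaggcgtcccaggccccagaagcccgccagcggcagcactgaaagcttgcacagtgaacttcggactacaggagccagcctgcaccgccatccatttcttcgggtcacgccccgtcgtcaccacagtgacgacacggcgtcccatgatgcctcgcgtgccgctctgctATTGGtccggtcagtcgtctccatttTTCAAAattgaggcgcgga
The matches lay at many distances from the start. In Kif11 the CHR began 19 bases before the start and the CCAAT box 45 bases before it, and in Cdk1 the nearest CHR began 15 bases before it. In Mki67 the CHR matches began 116 and 98 bases before the start and the CCAAT boxes farther out, at 188, 166 and 141 bases. No motif match was found before Ccne1, Tyms, Birc5, Melk, Nusap1 or Anln. A match is a string of letters and not evidence that a factor binds there.

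**Figure D1:**
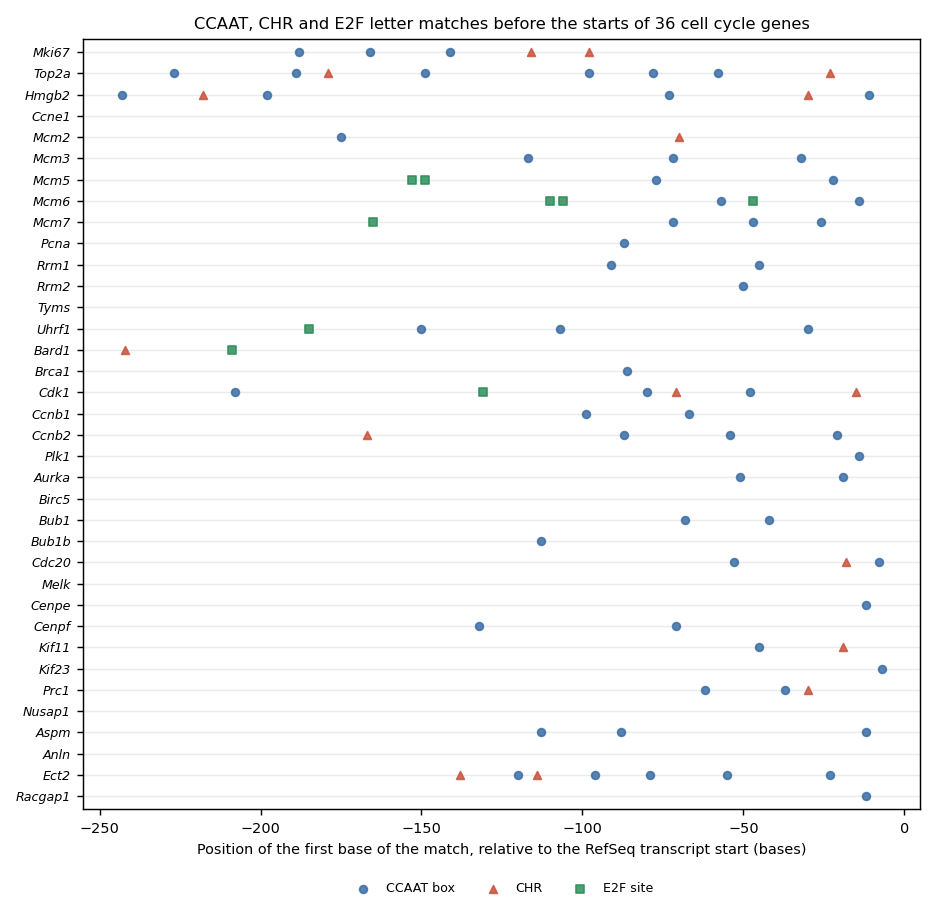
Positions of motif matches in the 250 bases before the RefSeq transcript start of 36 cell cycle genes, with genes in rows ordered by role and the horizontal axis in bases relative to the start (0). Circles are CCAAT boxes, triangles are CHR matches and squares are E2F matches, and genes with several starts carry the matches of all of them. CCAAT boxes appear in 29 of the 36 rows, whereas the 6 rows with E2F matches are Mcm5, Mcm6, Mcm7, Uhrf1, Bard1 and Cdk1.

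A single one of these genes was called between the genotypes. Of the 45 genes, 43 passed the filter on low counts, and Aurkb and Melk did not. At FDR 0.05, 1 of the 43 (2.33%) was higher in Bbs8-/-, Stmn1, compared with 1.1% of all tested genes, and 0 were lower, compared with 1.14%. At an unadjusted p under 0.05 there were 5 of the 43 (11.6%), of which 2 were higher (Stmn1 and Ect2) and 3 lower (Uhrf1, Mcm4 and Aspm), compared with 13% of all tested genes. The DESeq2 Wald test also gave Stmn1 as the single call, with 2 genes at an unadjusted p under 0.05. For 2 of the 43 genes (4.65%), Stmn1 and Uhrf1, all knockout libraries lay on one side of all controls, compared with 7.38% of all tested genes. The log2 fold changes were positive for 21 genes and negative for 22, with a median of -0.023, and the median over all tested genes was -0.0041. These shares rest on few genes and were read as near those of all tested genes, and a share of 2.33% is the least that 1 call in 43 can give. All 45 genes, with Aurkb and Melk included, had a median level of 7.77 CPM, compared with 18.7 CPM over all tested genes.

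**Figure D2:**
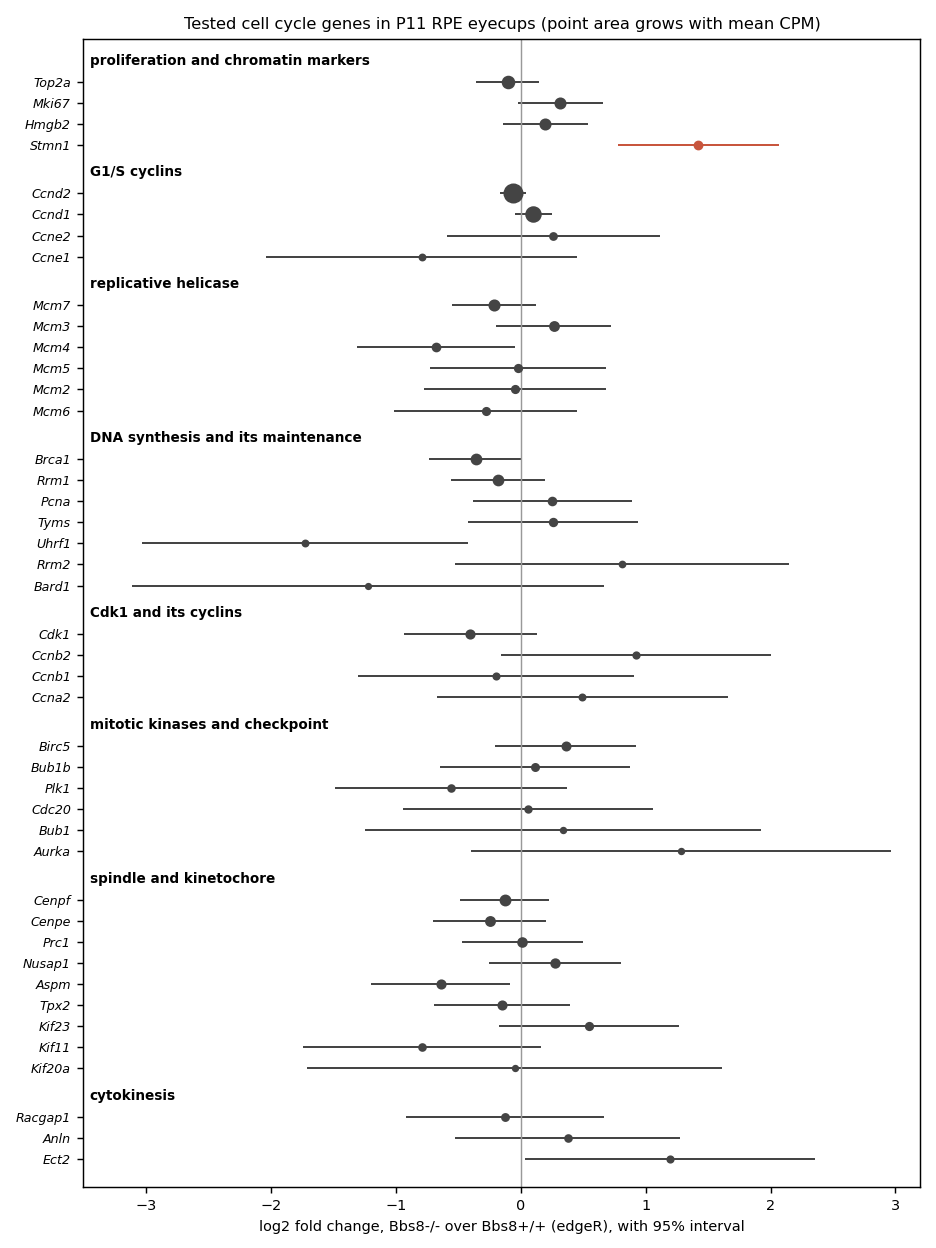
Log2 fold change in Bbs8-/- over Bbs8+/+ (horizontal axis) with its 95% interval for the 43 tested cell cycle genes, grouped by role and ordered within a group by mean level, with larger points for higher mean CPM. Stmn1, in red, is the single gene past FDR 0.05, at 1.42, and the intervals widen from Ccnd2 (-0.15 to 0.034) to Bard1 (-3.11 to 0.66).

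The level of a gene set how small a difference could be seen. QuantSeq yields about 1 read per transcript molecule at its 3′ end, so CPM values were compared between genes without a correction for length. Ccnd2 was by far the most abundant at a mean of 1156 CPM over the 8 libraries, followed by Ccnd1 at 257 CPM and Top2a at 70.1 CPM. These 3 did not overlap each other in any library. Next came Mcm7 at 35.4, Mki67 at 35, Hmgb2 at 34.9 and Cenpf at 31.9 CPM, which lay within the spread of one another. The 2 D-type cyclins made up 72.8% of the summed level of the 45 genes. A mean of 10 CPM or more was reached by 19 genes, and 15 were under 5 CPM. Over all 8 libraries 17 genes had fewer than 100 counts in total. In a single library 41 to 45 of the genes had at least 1 count, and 5 genes, Uhrf1, Bard1, Aurka, Aurkb and Melk, had a count of 0 in some library. A count of 0 allows up to 3 counts, or 1.05 to 1.82 CPM depending on the library, and this limit covers counting error only.

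Of the 19 genes at 10 CPM or more, 16 had a 95% interval for the log2 fold change that lay within 1 of zero on either side, so a change of 2-fold lay outside the interval. The other 3 were Stmn1, Mcm4 and Aspm. Of the 24 tested genes under 10 CPM, 6 had such an interval. The intervals of the other 18 reached past 1 on the log2 scale in at least 1 direction, so a 2-fold change in that direction lay inside the interval. Of these 18, Uhrf1 and Ect2 had intervals that left out zero, and the other 16 included it. Most fitted values also moved with single libraries. When each library was left out in turn, the log2 fold change changed sign for 12 of the 43 genes and moved by over 1.5 times without changing sign for 23. It stayed within 1.5 times for the other 8, which were Stmn1, Uhrf1, Ccnd1, Mcm7, Mki67, Hmgb2, Brca1 and Aurka.

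**Figure D3:**
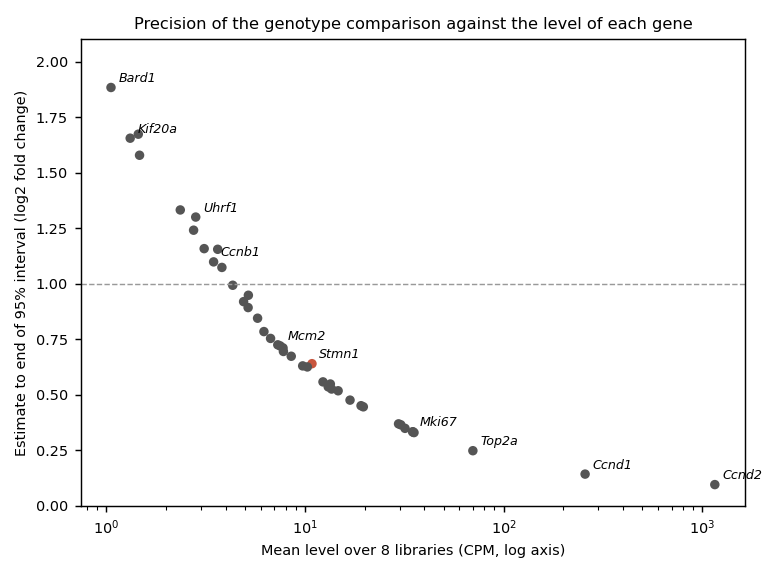
Distance from the log2 fold change to either end of its 95% interval (vertical axis) against the mean level over 8 libraries in CPM (horizontal axis, logarithmic) for the 43 tested cell cycle genes. The width falls steadily with level, Stmn1 is in red, and the dashed line marks a distance of 1.

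Summed over the 45 genes, the level was 1943, 1946, 1945 and 1999 CPM in control replicates 1 to 4 and 1901, 1944, 1820 and 2028 CPM in knockout replicates 1 to 4. The 2 ranges overlapped, with the knockout libraries at both the lowest and the highest value. Without Ccnd1 and Ccnd2 the remaining 43 genes summed to 531 ± 19 CPM in controls and 525 ± 34.5 CPM in knockouts. The ranges overlapped for each of the 8 role groups. The replicative helicase summed to 82.7, 93.2, 92.9 and 97.7 CPM in the controls and 85.5, 83.5, 81.2 and 83.6 CPM in the knockouts. The helicase values of the knockout libraries lay within a narrow band, and Bbs8+/+ replicate 1 lay inside it. The cytokinesis genes summed to 12.9, 13, 9.81 and 16.8 CPM in the controls and 23, 13.1, 17.9 and 14 CPM in the knockouts, where Bbs8+/+ replicate 4 was above 2 of the knockout libraries.

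**Figure D4:**
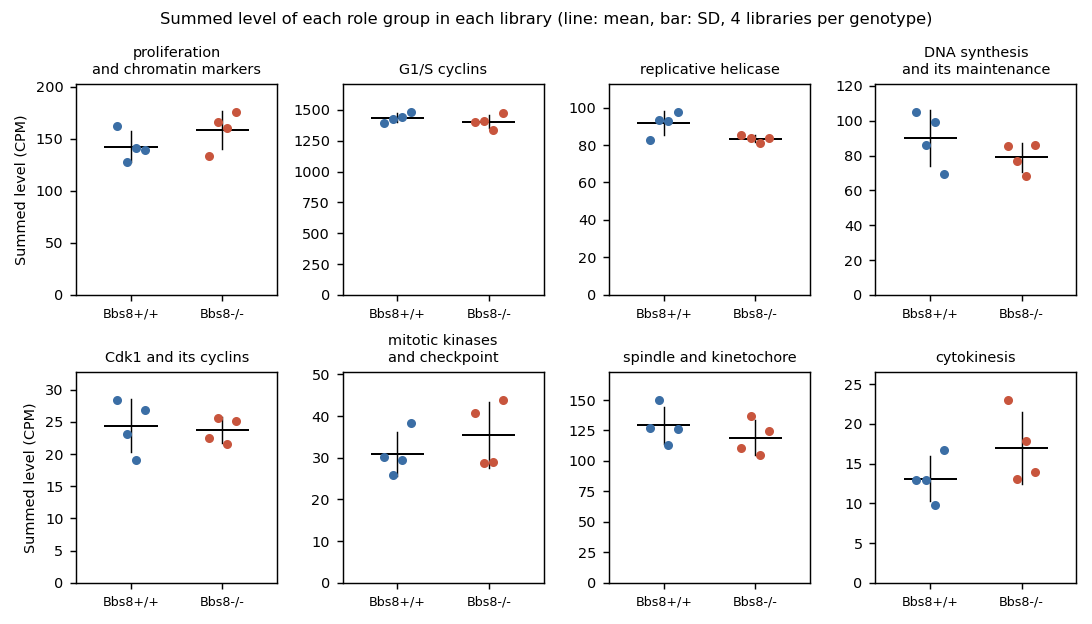
Summed level in CPM (vertical axes, from 0) of each role group in each library, with 4 Bbs8+/+ libraries in blue and 4 Bbs8-/- libraries in red; horizontal lines are means and vertical bars are SD. The points of the genotypes overlap in all 8 panels, including the replicative helicase (82.7 to 97.7 CPM in controls and 81.2 to 85.5 CPM in knockouts).

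Of the 4 proliferation and chromatin markers, 1 rose and the other 3 did not pass the test. Stmn1, which encodes stathmin, a protein that destabilises microtubules and is abundant in dividing cells and in developing neurons, was 9.05, 1.57, 7.94 and 5.24 CPM in control replicates 1 to 4 and 13.9, 20.9, 10.5 and 17.7 CPM in knockout replicates 1 to 4. Every knockout library was above every control library, and Bbs8+/+ replicate 2, with 4 counts, was the lowest. The log2 fold change was 1.42 (SE 0.32, 95% interval 0.78 to 2.06, edgeR FDR 0.00233), and the means were 5.95 ± 3.33 CPM in controls and 15.8 ± 4.5 CPM in knockouts (± SD, with n = 4 in each genotype here and wherever ± is used). Without Bbs8+/+ replicate 2, the lowest library, the log2 fold change was 1.11 (edgeR FDR 0.0495), and without Bbs8-/- replicate 2, the highest, it was 1.26 (edgeR FDR 0.0408). Stmn1 lies on chr4:134468320-134473843 (GRCm38, + strand), and a small RNA gene lies in its exons. It shares at least 100 bases of its 3′ end, at 95% identity or more, with the copy Gm11223, which had no row of its own in the count tables.

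The other genes of the stathmin family and a list of neuronal genes, both added after the Stmn1 values had been seen, are given beside it. Stmn2 was 21.2 ± 3.38 CPM in controls and 28.8 ± 4.56 CPM in knockouts (log2 fold change 0.45, unadjusted p = 0.0264, edgeR FDR 0.299) and Stmn3 was 8.31 ± 2.83 CPM in controls and 9.81 ± 1.59 CPM in knockouts (log2 fold change 0.25, edgeR FDR 0.826). Stmn4 did not pass the filter. Summed, Stmn2, Stmn3 and Stmn4 were at 23 to 35.8 CPM in controls and 37 to 43.1 CPM in knockouts, without overlap. Of 10 neuronal genes, 0 passed FDR 0.05. Of all tested genes 13% had an unadjusted p under 0.05, and 2 of the 10 neuronal genes did. These were Gap43, a growth cone protein, at a log2 fold change of 0.50 (edgeR FDR 0.0545), and Nefl, the neurofilament light chain, at 0.72 (edgeR FDR 0.377). Elavl3, a neuronal RNA-binding protein, had a fitted difference of the opposite sign, at 4.57 ± 1.44 CPM in controls and 2.16 ± 1.48 CPM in knockouts (log2 fold change -1.12, unadjusted p = 0.0595, edgeR FDR 0.416). The 10 neuronal genes summed to 271 to 309.6 CPM in controls and 288 to 339 CPM in knockouts, with Dcx, Tubb3, Elavl4 and Rbfox3 each under 6 CPM in all libraries. Most of this sum was Map1b, a microtubule-associated protein, at 216 ± 12.9 CPM in controls and 211 ± 19.2 CPM in knockouts (log2 fold change -0.031). Markers of some other cells moved with genotype in the same libraries, where 1.1% of all tested genes were called higher and 1.14% lower. Of 10 lens genes, 5 were higher in Bbs8-/-, all crystallins (Crygb, Crygc, Crygd, Cryaa and Cryba1). The list summed to 50.7 to 65.9 CPM in controls and 339 to 381 CPM in knockouts. The other lens genes did not pass FDR 0.05. Their log2 fold changes were 1.67 for Crybb2, 0.93 for Bfsp1, 0.40 for Lim2 and 0.30 for both Mip and Bfsp2. Of 8 macrophage and microglia genes, 2 were higher, with sums of 391 to 423 CPM in controls and 485 to 521 CPM in knockouts. Of 8 fibroblast and matrix genes 3 were lower (34426 to 36149 CPM in controls and 27021 to 28206 CPM in knockouts), of 9 melanocyte genes 6 were lower (14047 to 14746 CPM in controls and 11644 to 12220 CPM in knockouts), and of 7 Schwann cell and myelin genes 3 were lower (381 to 438 CPM in controls and 279 to 342 CPM in knockouts). Photoreceptor genes, with 2 of 8 lower, summed to 402 to 455 CPM in controls and 282 to 346 CPM in knockouts. The 6 genes of conjunctival or corneal epithelium summed to 12.6 to 20.1 CPM in controls and 0.467 to 1.38 CPM in knockouts, and Krt5, Krt6a and Krt13 were at 0 in all knockout libraries. Endothelial genes, with 1 of 10 higher, summed to 909 to 962 CPM in controls and 924 to 1015 CPM in knockouts, and genes of retinal progenitors and Müller glia, with 0 of 6 tested called, to 940.1 to 1009 CPM in controls and 893 to 943 CPM in knockouts, nearly all of it Glul. Of 8 RPE genes 1 was higher (Otx2) and 1 lower (Mitf), and the list summed to 16306 to 17424 CPM in controls and 17682 to 17964 CPM in knockouts. Of 6 pericyte and smooth muscle genes 1 was lower, with sums of 1253 to 1287 CPM in controls and 1102 to 1181 CPM in knockouts. Of 7 erythroid genes 2 were higher (5159 to 5726 CPM in controls and 5635 to 6493 CPM in knockouts), and of 8 skeletal muscle genes 0 were called, although their sums of 2601 to 2717 CPM in controls and 2764 to 2919 CPM in knockouts did not overlap. The sums of the erythroid, endothelial, neuronal and retinal progenitor lists overlapped between the genotypes, and those of the other lists did not. The part of these cells in the Stmn1 difference was not tested.

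The remaining markers of this group had higher levels than Stmn1. Mki67, which encodes the Ki-67 antigen that coats mitotic chromosomes, was 33.2, 31.8, 26.6 and 33.2 CPM in the controls and 30.3, 36.5, 42.6 and 45.3 CPM in the knockouts. The 3 highest libraries were knockouts and the fourth knockout lay among the controls, at a log2 fold change of 0.32 (95% interval -0.016 to 0.65, edgeR FDR 0.42). Top2a, the topoisomerase that untangles sister chromatids, was 92.2, 62.1, 67.7 and 69.5 CPM in the controls and 55.8, 68.4, 67.4 and 77.5 CPM in the knockouts. Both its highest and its lowest value were in libraries numbered 1, the highest in Bbs8+/+ and the lowest in Bbs8-/-, and the log2 fold change was -0.11 (95% interval -0.35 to 0.14, edgeR FDR 0.807). Hmgb2, a chromatin protein of proliferating cells, was 28.4, 32.2, 38.8 and 31.1 CPM in the controls and 33.4, 40.2, 39.9 and 35.5 CPM in the knockouts (log2 fold change 0.20, 95% interval -0.13 to 0.53). Mki67 and Top2a, which mark the same cycling cells, thus had fitted differences of opposite sign, neither past the test, and that of Top2a turned positive (0.024) without Bbs8+/+ replicate 1. Mki67 has 1 copy elsewhere and Hmgb2 has 5, and a small RNA gene lies in an exon of Top2a, so these counts are less certain.

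**Figure D5:**
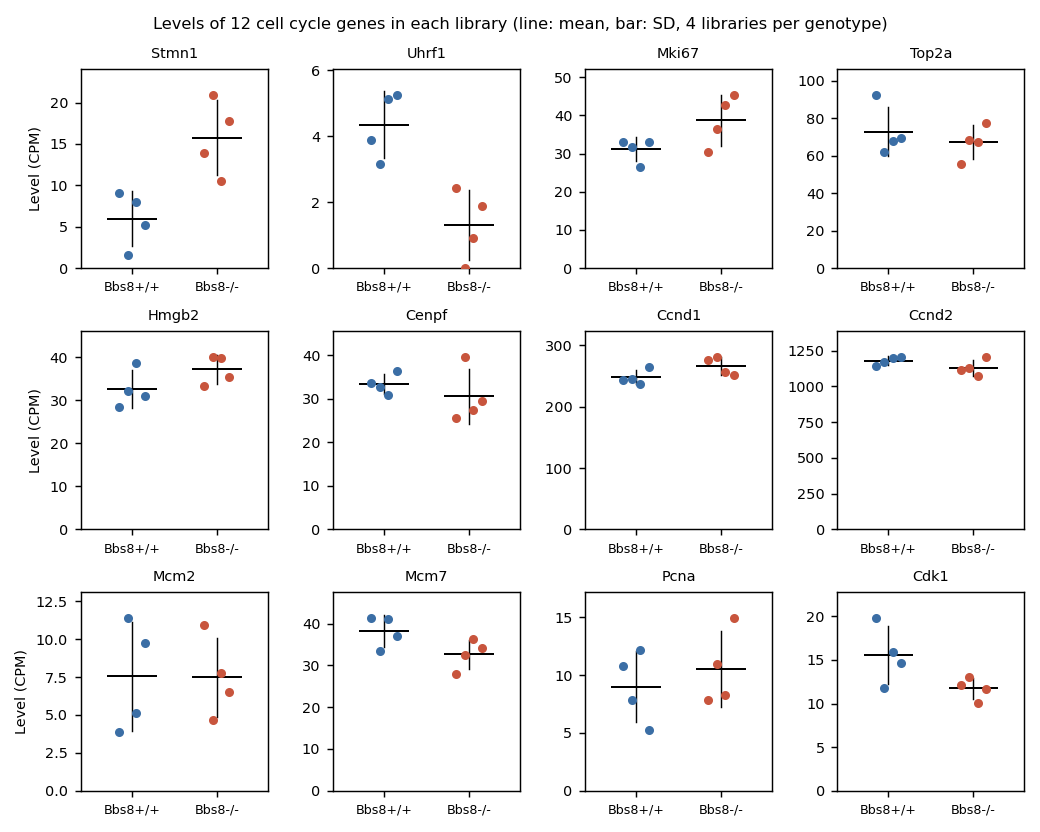
Level in CPM (vertical axes, from 0) of 12 cell cycle genes in each of the 4 Bbs8+/+ (blue) and 4 Bbs8-/- (red) libraries, with the mean as a horizontal line and SD as a vertical bar. Stmn1 lies higher and Uhrf1 lower in all Bbs8-/- libraries, and the genotypes overlap in the other 10 panels.

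None of the 4 G1/S cyclins passed the test. Ccnd2 and Ccnd1 encode D-type cyclins, which many cells that are not dividing also express. Ccnd2 was 1143, 1170, 1198 and 1209 CPM in the controls and 1116, 1127, 1075 and 1208 CPM in the knockouts, and Ccnd1 was 244, 245, 237 and 265 CPM in the controls and 277, 281, 257 and 252 CPM in the knockouts. Both sets of libraries overlapped. The log2 fold changes were -0.06 (95% interval -0.15 to 0.034, edgeR FDR 0.652) and 0.10 (95% interval -0.039 to 0.24, edgeR FDR 0.593), the narrowest intervals of all 43 genes. On the opposite strand, Ccnd1 shares exons with LTO1 and Ccnd2 with 9330179D12Rik and Gm43126, so both counts are less certain. The E-type cyclins, which act with Cdk2 at the entry into S phase, were scarce. Ccne1 was 3.49 ± 2.76 CPM in controls and 2.02 ± 0.597 CPM in knockouts and Ccne2 was 5.26 ± 3.43 CPM in controls and 6.31 ± 3.92 CPM in knockouts. Of the 36 control counts of Ccne1, 21 were in Bbs8+/+ replicate 4, and the log2 fold change was -0.79 with that library and -0.10 without it.

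The 6 subunits of the replicative helicase, Mcm2 to Mcm7, unwind DNA as one ring at every fork, and 5 of their 6 log2 fold changes were negative without any passing FDR 0.05. Of these, Mcm2 and Mcm5 changed sign when single libraries were left out. Mcm7, the most abundant, was 41.4, 33.4, 41.1 and 37 CPM in the controls and 27.9, 32.4, 36.2 and 34.1 CPM in the knockouts (log2 fold change -0.22, 95% interval -0.54 to 0.11). Mcm2 was 3.88, 11.4, 5.14 and 9.77 CPM in the controls and 10.9, 4.7, 7.8 and 6.54 CPM in the knockouts, and it varied nearly as widely within each genotype as over all libraries (log2 fold change -0.048, 95% interval -0.77 to 0.67). Mcm4 had the lowest p of the group, at 12.6 ± 5.5 CPM in controls and 7.98 ± 2.59 CPM in knockouts, a log2 fold change of -0.68 and an edgeR FDR of 0.33, and its libraries overlapped. Without Bbs8+/+ replicate 4 its log2 fold change was -0.42. Mcm3 was the subunit with a positive value, 0.26 (95% interval -0.19 to 0.71). Mcm5 had -0.023 (95% interval -0.72 to 0.67) and Mcm6 had -0.28 (95% interval -1.0 to 0.44). Mcm7 shares exons with Ap4m1 and Cops6 on the opposite strand, Mcm4 and Mcm7 each have a near-identical copy elsewhere, and the 3′ end of Mcm5 matches 18 other genes, so the counts of these 3 subunits are less certain.

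In the DNA synthesis group, Uhrf1 was the gene whose libraries did not overlap. Uhrf1 encodes the protein that recruits Dnmt1 to newly copied DNA so that methylation is maintained. It was 3.88, 3.15, 5.14 and 5.24 CPM in control replicates 1 to 4 and 2.43, 0, 0.917 and 1.87 CPM in knockout replicates 1 to 4. These levels rest on few reads, 43 counts in the 4 control libraries and 10 in the 4 knockout libraries, and replicate 2 of Bbs8-/- had none, which allows up to 1.57 CPM. The log2 fold change was -1.73 (SE 0.66, 95% interval -3.03 to -0.43), with an unadjusted p of 0.00966 and an edgeR FDR of 0.186, so it did not pass the test over all genes. Its second RefSeq start held 1 of the E2F matches described above.

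The other members of this group overlapped between the genotypes. Pcna, the sliding clamp of DNA polymerase, was 10.8, 7.86, 12.1 and 5.24 CPM in the controls and 7.88, 11, 8.25 and 14.9 CPM in the knockouts (log2 fold change 0.25, 95% interval -0.37 to 0.88, and 0.033 without Bbs8-/- replicate 4). Brca1, a DNA repair gene, was 34.1 ± 6.12 CPM in controls and 26.7 ± 5.19 CPM in knockouts (log2 fold change -0.36, edgeR FDR 0.394). Its partner Bard1 was far scarcer, with 20 counts over all libraries and a log2 fold change of -1.22 (95% interval -3.11 to 0.66), which was -1.98 without Bbs8-/- replicate 3. The large subunit of ribonucleotide reductase, Rrm1, was 31.6 ± 7.32 CPM in controls and 27.7 ± 4.07 CPM in knockouts. The small subunit, Rrm2, was 1.74 ± 0.57 CPM in controls and 2.99 ± 2.5 CPM in knockouts. Their log2 fold changes were -0.18 and 0.81, and neither passed the test. Of the 25 knockout counts of Rrm2, 14 were in Bbs8-/- replicate 3, and without that library its log2 fold change was 0.12. Tyms, thymidylate synthase, was 7.72 ± 1.32 CPM in controls and 9.37 ± 3.25 CPM in knockouts.

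Cdk1 and its cyclins, which drive entry into mitosis, had no call. Cdk1 was 19.8, 11.8, 15.9 and 14.7 CPM in the controls and 12.1, 13.1, 10.1 and 11.7 CPM in the knockouts. Most control libraries were above the knockouts, but Bbs8+/+ replicate 2 lay among them, and the log2 fold change was -0.40 (95% interval -0.93 to 0.12, edgeR FDR 0.56). Ccnb1 was 2.58, 5.11, 0.934 and 6.28 CPM in the controls and 1.21, 1.04, 5.5 and 5.14 CPM in the knockouts, 66 counts in all, and its values spread over the same range in both genotypes (log2 fold change -0.20, 95% interval -1.29 to 0.9). Ccnb2 at 0.92 (95% interval -0.15 to 1.99) and Ccna2 at 0.49 (95% interval -0.66 to 1.65) rested on 65 and 55 counts, and were 0.50 without Bbs8-/- replicate 2 and 0.18 without Bbs8+/+ replicate 3. Ccna2 overlaps Exosc9 on the opposite strand.

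Of the 8 mitotic kinases and checkpoint genes, 6 were tested and 0 passed. Birc5, which encodes survivin of the chromosomal passenger complex, was the most abundant at 10.8 ± 3.01 CPM in controls and 13.9 ± 3.07 CPM in knockouts (log2 fold change 0.36, 95% interval -0.2 to 0.92). Bub1b, a spindle checkpoint kinase, was 6.43 ± 1.34 CPM in controls and 7.02 ± 1.93 CPM in knockouts, and Cdc20, which activates the anaphase-promoting complex, was 4.23 ± 2.5 CPM in controls and 4.45 ± 1.63 CPM in knockouts. Plk1 was 5.86 ± 4.13 CPM in controls and 3.98 ± 1.86 CPM in knockouts, with 11.5 CPM in Bbs8+/+ replicate 4 as the highest library. Its log2 fold change was -0.56, and 0.039 without that library. Aurka, the centrosomal Aurora kinase, had 24 counts over all libraries and a log2 fold change of 1.29 (95% interval -0.39 to 2.96), and Bub1 had 26 counts. The 2 untested genes were at the edge of detection, Aurkb with 15 counts and Melk with 21 counts in all.

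None of the 9 spindle and kinetochore genes passed the test. Cenpf, a kinetochore protein, was 33.3 ± 2.29 CPM in controls and 30.5 ± 6.31 CPM in knockouts, with the knockout libraries at both ends (log2 fold change -0.13, 95% interval -0.48 to 0.22). Aspm, which organises spindle poles, had the lowest p of the group at 16.4 ± 3.88 CPM in controls and 10.5 ± 5.66 CPM in knockouts (log2 fold change -0.64, edgeR FDR 0.277), and Bbs8-/- replicate 2 lay within the controls; without it the log2 fold change was -1.04. The kinetochore motor Cenpe was 21.4 ± 3.87 CPM in controls and 18 ± 5.15 CPM in knockouts and the midzone protein Prc1 16.7 ± 3.75 CPM in controls and 17 ± 3.11 CPM in knockouts. Nusap1 at 0.28 and Tpx2 at -0.15, which bind spindle microtubules, had intervals within 1 of zero. Among the kinesins, Kif23 had a log2 fold change of 0.55 (95% interval -0.17 to 1.26) and Kif11 of -0.79 (95% interval -1.74 to 0.16), and Kif20a was near the floor with 23 counts in all. Without Bbs8+/+ replicate 2 the value of Kif23 was 1.04. Kif11 had 13, 2, 1 and 13 counts in knockout replicates 1 to 4, and its log2 fold change was -1.34 without replicate 1 and -0.39 without replicate 3. Nusap1, Prc1 and Kif20a share exons with genes on the opposite strand, and the 3′ end of Cenpf matches 30 other genes and that of Kif11 3, so these counts are less certain. The 3′ end of Prc1 matches Echs1 and its overlapping gene Rccd1, and that of Kif20a matches only its overlapping gene Cdc23.

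The 3 cytokinesis genes had means under 7 CPM, and none passed the test. Ect2, the exchange factor that activates RhoA at the cleavage furrow, was 4.31, 2.36, 0.934 and 1.05 CPM in the controls and 10.9, 3.13, 4.13 and 2.33 CPM in the knockouts, with Bbs8-/- replicate 1 far above the rest. The log2 fold change was 1.20 (SE 0.58), with an unadjusted p of 0.0424 and an edgeR FDR of 0.364, and without Bbs8-/- replicate 1 the log2 fold change was 0.57 (edgeR FDR 0.845). Its partner Racgap1 was 6.49 ± 2.82 CPM in controls and 5.96 ± 1.55 CPM in knockouts, and the scaffold Anln was 4.46 ± 2.21 CPM in controls and 5.91 ± 2.3 CPM in knockouts.

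Other genes of the pathway, 68 in 4 lists, were read in the same fit, and 63 of them were tested. At FDR 0.05, 0 were higher and 0 lower, and 4 had an unadjusted p under 0.05, 3 of them higher, compared with 13% of all tested genes. The DESeq2 Wald test likewise called 0. All knockout libraries lay above all controls for 1 of the 63 (Ccnd3) and below them for 1 (Cdkn1c). Among all tested genes 7.38% had no such overlap. Of 7 CDK inhibitors, 5 were tested. Cdkn1c, encoding p57, was 437, 429, 417 and 409 CPM in the controls and 379, 402, 391 and 402 CPM in the knockouts. All its knockout libraries were below the controls, by little (log2 fold change -0.10, edgeR FDR 0.506). Cdkn1b, encoding p27, was 204 ± 30.4 CPM in controls and 184 ± 18.3 CPM in knockouts, and Cdkn1a, the p53 target encoding p21, was 39.5 ± 4.8 CPM in controls and 40.6 ± 6.36 CPM in knockouts. Cdkn2a and Cdkn2b had at most 0.934 CPM in any library.

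All 21 genes of the Rb family, E2F and DREAM or MuvB list were tested, and their median log2 fold change was 0.15 with 11 positive. E2f2, an activator E2F, had an unadjusted p of 0.042 at a log2 fold change of -0.73 (edgeR FDR 0.363), and without Bbs8+/+ replicate 4, which held 46 of its 103 control counts, the log2 fold change was -0.41 (edgeR FDR 0.763). E2f1 had a log2 fold change of 0.43 (edgeR FDR 0.641). Mybl2 and Foxm1, the factors of the mitotic wave, were scarce, at 1.23 and 3.5 CPM over the 8 libraries. Of 22 origin licensing and firing genes 20 were tested. Among them Mcm10, which helps to start forks, was 3.12 ± 1.12 CPM in controls and 6.42 ± 1.54 CPM in knockouts (log2 fold change 1.04, unadjusted p = 0.0314, edgeR FDR 0.324). Of 18 other CDKs, cyclins and CDK regulators 17 were tested. Mdm2, the ubiquitin ligase for p53, was 37.6 ± 3.96 CPM in controls and 49.6 ± 11.5 CPM in knockouts (log2 fold change 0.40, edgeR FDR 0.197). Its highest library was Bbs8-/- replicate 2 at 66.3 CPM, without which the log2 fold change was 0.23 (edgeR FDR 0.66). Cdk7, the CDK-activating kinase, had a log2 fold change of 0.35 (edgeR FDR 0.382), and of 0.23 without Bbs8+/+ replicate 2. Ccnd3, the third D-type cyclin, was 222, 252, 242 and 254 CPM in the controls and 258, 278, 266 and 254 CPM in the knockouts. Its lowest knockout library lay barely above the highest control library, and the difference did not pass the test (log2 fold change 0.12, edgeR FDR 0.503).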

How the data were processed

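RNA of whole RPE eyecups was sequenced in 8 libraries, 4 per genotype as the labels give it. The deposited files hold unscaled counts per gene, made from reads with a single alignment, which the authors obtained by trimming with BBDuk, aligning to mm10 with STAR and counting with htseq-count on an Ensembl gene model. The counting's strand setting is not given in the sources used here, and reads that map to several copies of a gene were not counted. The labels call the libraries biological replicates, and the study counted each animal, age-matched littermates of both genotypes, as one. Libraries were the units of the tests here, and the number of animals behind each was not tested. Symbols and positions came from GENCODE M21 (GRCm38), which held 30934 of the 31053 identifiers.

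The cell cycle genes and all gene lists were chosen with earlier results of these data known, and the stathmin family and neuronal lists were added after the Stmn1 values were seen. After TMM scaling the counts were tested in R 4.3.3 with edgeR 4.0.16, the tool the study used, here by its quasi-likelihood test, with genotype as the factor, two-sided, and Benjamini-Hochberg adjustment over all 13813 tested genes. CPM values carry TMM factors and are given as mean ± SD. The standard error is the log2 fold change divided by the root of F, and 95% intervals use the fit's degrees of freedom. Intervals and floors (3 counts) cover no error of amplification, as no molecular identifiers were named. Given per library were genes past the threshold, genes without overlap, the 6 most abundant and a fixed panel (Mki67, Top2a, Cdk1, Ccnb1, Ccnd1, Mcm2, Pcna). Of the other pathway genes, those at an unadjusted p under 0.05 were named. Ect2, Cdkn1a, Cdkn1b, Cdkn1c, Ccnd3, E2f1, Mybl2 and Foxm1 were given in addition after their values were seen. Copies were sought by blastn over the last 500 bases of each coding transcript. A match of at least 100 bases at 95% identity or more was found for 16 of the 45 genes, some of them shared repeats (Stmn1, Mki67, Hmgb2, Ccnd1, Ccne2, Mcm4, Mcm5, Mcm7, Rrm2, Tyms, Ccna2, Ccnb1, Cenpf, Prc1, Kif11 and Kif20a). Exons of 10 of the 45 overlap a gene on the opposite strand. For Ccnd1, Ccne2, Ccna2 and Kif20a that overlapping gene was the only match, and for Prc1 it was 1 of 2. The procedure was tested on simulated data. Alternatives were RLE factors, library totals, no filter or filterByExpr, DESeq2 1.42.0, the likelihood ratio test, a replicate block, thinning, leaving out Gm42418 with the mitochondrial genes, FDR 0.01 and leaving out each library.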

Additional observations from a re-analysis of the deposited data

Results flagged for a closer look

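Among 114 groups of 4 libraries examined for a single value far from the others, 7 had one, where chance gives about 5.7. In Bbs8-/- replicate 4, Ccne2 was 12.14 CPM, compared with 3.655 to 4.852 CPM in the other knockout libraries. Rrm2 was 2.585 CPM in Bbs8+/+ replicate 1 and 1.396 to 1.573 CPM in the other controls. Ccna2 was 0.467 CPM in Bbs8+/+ replicate 3, from a single count, and 3.141 to 3.447 CPM in the others. Kif23 was 11.8 CPM in Bbs8+/+ replicate 2 and 4.203 to 4.739 CPM in the others. Prc1 was 12.38 CPM in Bbs8-/- replicate 3 and 18.27 to 18.8 CPM in the others. Racgap1 was 3.639 CPM in Bbs8-/- replicate 1 and 6.537 to 6.878 CPM in the others. The summed level of the 45 genes was 1999 CPM in Bbs8+/+ replicate 4 and 1943 to 1946 CPM in the other controls.

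Reads that the counter placed outside annotated genes, which entered no comparison, made up a mean of 44.27% in Bbs8-/- and 42.15% to 43.41% in the Bbs8+/+ libraries.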

How the results depend on the processing

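The single call among the cell cycle genes, Stmn1, was made under all 17 alternatives, with a log2 fold change of 1.11 to 1.70 and an FDR of 0.000481 to 0.0495, the highest without Bbs8+/+ replicate 2. No other of these genes and none of the other pathway genes passed FDR 0.05 under any of them. Uhrf1 had an FDR of 0.104 to 0.432 in the 16 alternatives that tested it. Ttc8 stayed between -2.45 and -1.70. The median log2 fold change of the tested genes was -0.034 to 0.13 when each library was left out in turn. At FDR 0.01 the counts over all genes were 93 higher and 81 lower. With library totals only, the summed level in Bbs8+/+ replicate 1 was 1980 CPM.

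A block for the replicate number in the titles gave 134 higher and 129 lower genes over all, and Stmn1 had an FDR of 0.00381. Same-numbered libraries did not deviate together (correlations of -0.0516 to 0.0207 over 6169 genes), so the numbers were not read as pairs.

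The fitted differences of 12 genes changed sign when 1 library was left out, without a call. Leaving out each library in turn gave -0.18 to 0.024 for Top2a, -0.22 to 0.24 for Kif20a, -0.26 to 0.21 for Mcm2, -0.19 to 0.17 for Mcm5, -0.087 to 0.15 for Prc1, -0.57 to 0.18 for Ccnb1, -0.91 to 0.039 for Plk1, -0.26 to 0.51 for Cdc20, -0.28 to 0.19 for Racgap1, -0.035 to 0.47 for Nusap1, -0.28 to 0.80 for Ccne2 and -0.024 to 0.23 for Bub1b. DESeq2 gave no adjusted p for Bard1, Aurka, Bub1 and Kif20a. Depth limited many genes, as 24 of the 43 tested were under 10 CPM.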
